A study of Mus musculus with 14 samples.

Results

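Hippocampal expression of voltage-gated calcium and sodium channels, HCN and NALCN cation channels, TRP channels and the proteins that move calcium across internal and surface membranes was compared between control mice, mice exposed to intermittent hypoxia (IH) and mice exposed to sustained hypoxia (SH). Genes were taken by symbol: the pore and auxiliary subunits of the Cacna, Cacnb, Cacng, Scn, Hcn, Trpc, Trpm and Trpv families, Nalcn, and the Ryr, Itpr, Orai, Stim and Atp2a, Atp2b and Atp2c families. This gave 40 of the 7756 genes in the deposited table, of which 39 had group means of 40 counts or more and were tested. No Stim gene was among them, and Trpv3, which stood at normalized counts of 28.2 to 42.5 in control, 26.5 to 57.9 in IH and 26.6 to 58.3 in SH, was the member left untested. All animals were wild-type male C57BL/6J mice, 8 weeks old, kept for 28 days: 4 controls in room air at 21% oxygen, 5 IH mice in air that swung between 10% and 21% oxygen every 2 min for 8 hours a day, and 5 SH mice at a constant 10% for the same 8 hours. One library of polyadenylated RNA was read from each of the 14 samples, and each is a mixture of all cell types of the hippocampus, so that fewer cells of a type and less RNA per cell cannot be told apart.

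These proteins set the electrical and calcium behaviour of hippocampal neurons. Voltage-gated calcium channels (Cav) are built from an alpha1 pore with alpha2delta and beta subunits, and several gamma genes encode TARPs, the proteins that carry AMPA receptors to the synapse. Sodium channels (Nav) start the action potential, HCN channels pass the inward current that opens on hyperpolarization in pyramidal cell dendrites, and NALCN is a sodium leak. TRP channels are cation channels opened by lipids, temperature, stretch or oxidants, while ryanodine and IP3 receptors release calcium from the endoplasmic reticulum, Orai pores refill it and the calcium ATPases pump calcium into stores or out of the cell.

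The total count per library ranged from 8352355 to 11777100 in control, 7568082 to 10578074 in IH and 7203660 to 10480839 in SH, and did not differ beyond their spread (exact 2-sided permutation test, p = 0.206 for IH vs. control, 0.254 for SH vs. control, and 0.944 for IH vs. SH). Neuronal, pyramidal and dentate gyrus markers were above 0 in every library. A group of 4 libraries, control 4, IH 1, IH 4 and SH 1, stood apart by choroid plexus transcripts: the summed normalized count of 17 markers was between 71182 and 127344 in these and between 4148 and 42562 in the other 10. The study took its control RNA from a preliminary experiment and the IH and SH RNA from the main one, so experiment and hypoxia cannot be told apart in either comparison with control. Values below are normalized counts, the deposited counts divided by the relative effective size of the library, and libraries are listed in the order of their replicate number.

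The 3 channel genes with the lowest adjusted p-values against control in IH were Hcn2, Trpc6 and Trpm7, and the bases before an annotated first exon of each are shown with the cores of hypoxia response elements that they hold. Each line holds 250 bases of GRCm39 that end at the base before the first exon (the 5′-most start among transcripts that share the canonical first exon in GENCODE M39). The hypoxia response element core, ACGTG or GCGTG on either strand, is in capitals.
Trpc6: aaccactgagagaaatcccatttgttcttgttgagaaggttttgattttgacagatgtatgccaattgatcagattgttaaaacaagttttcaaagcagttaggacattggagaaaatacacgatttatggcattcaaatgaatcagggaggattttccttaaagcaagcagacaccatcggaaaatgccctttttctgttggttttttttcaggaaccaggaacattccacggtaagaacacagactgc
Trpm7: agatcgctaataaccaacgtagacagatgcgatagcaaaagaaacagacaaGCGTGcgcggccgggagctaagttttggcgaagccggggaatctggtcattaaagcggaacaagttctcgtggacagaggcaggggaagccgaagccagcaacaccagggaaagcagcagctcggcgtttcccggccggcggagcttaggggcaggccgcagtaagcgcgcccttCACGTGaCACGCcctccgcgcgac
Hcn2: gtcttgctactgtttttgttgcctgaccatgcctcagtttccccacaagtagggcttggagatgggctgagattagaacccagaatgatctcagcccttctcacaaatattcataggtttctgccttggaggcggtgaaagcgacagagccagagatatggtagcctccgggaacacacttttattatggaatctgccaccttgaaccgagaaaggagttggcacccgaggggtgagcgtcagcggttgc
The window of Trpc6 is chr9:8543491-8543740 on the plus strand, that of Trpm7 is chr2:126718183-126718432 on the minus strand, and that of Hcn2 is chr10:79551870-79552119 on the plus strand. Trpm7 held 4 matches, of which the palindromic CACGTG gives 2, one on each strand, and Trpc6 and Hcn2 held none in these windows. The Trpm7 window was also the richest of these in CG dinucleotides, with 25 against 3 for Trpc6 and 7 for Hcn2. Over all members 16 of 40 windows held a match (40%), beside 47.7% of the 7707 windows that could be read for genes of the table. The Trpc6 window is internal to the gene as annotated: another transcript starts upstream at chr9:8492905, and a short exon of Trpc6 itself (chr9:8543705-8543723) lies in the window. A match in any of these windows is a match of letters only.

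Against control, 4 of the 39 channel genes were called in IH (edgeR's quasi-likelihood test, Benjamini-Hochberg adjusted p under 0.05): Trpc6 and Trpm7 rose and Hcn2 and Cacng8 fell. Over all 7338 tested genes 10.9% were called in IH, 6.08% higher and 4.85% lower. In SH, 7 of 39 were called, with Trpm7 and Cacnb4 higher and Hcn2, Orai1, Cacnb3, Cacng7 and Trpv2 lower, beside 20.6% of all genes, 10.2% higher and 10.5% lower. The members' shares were thus close to those of all genes. No channel gene was called between IH and SH, beside 2.37% of all genes; DESeq2 called 0 as well, and 4 members had an unadjusted p under 0.05, beside 15.8% of all genes. The median log2 fold change of the 39 genes was -0.04 in IH, 0.02 in SH and -0.05 for IH vs. SH, beside -0.015, 0.0035 and -0.0039 over all tested genes. The study used a limit of 0.58 on the size of the log2 fold change together with an unadjusted p below 0.05, and by it 1 channel gene passed in IH, Trpc6, and 0 in SH and between IH and SH, beside 2.68%, 2.71% and 0.981% of all genes. As the direction of the calls went with GC content, each called gene is also given from a fit in which the smooth trends of GC content and length were removed from every library. The 2 comparisons with control share the same 4 control libraries, so the second call of a gene that moved in both is not independent of the first.

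**Figure D1:**
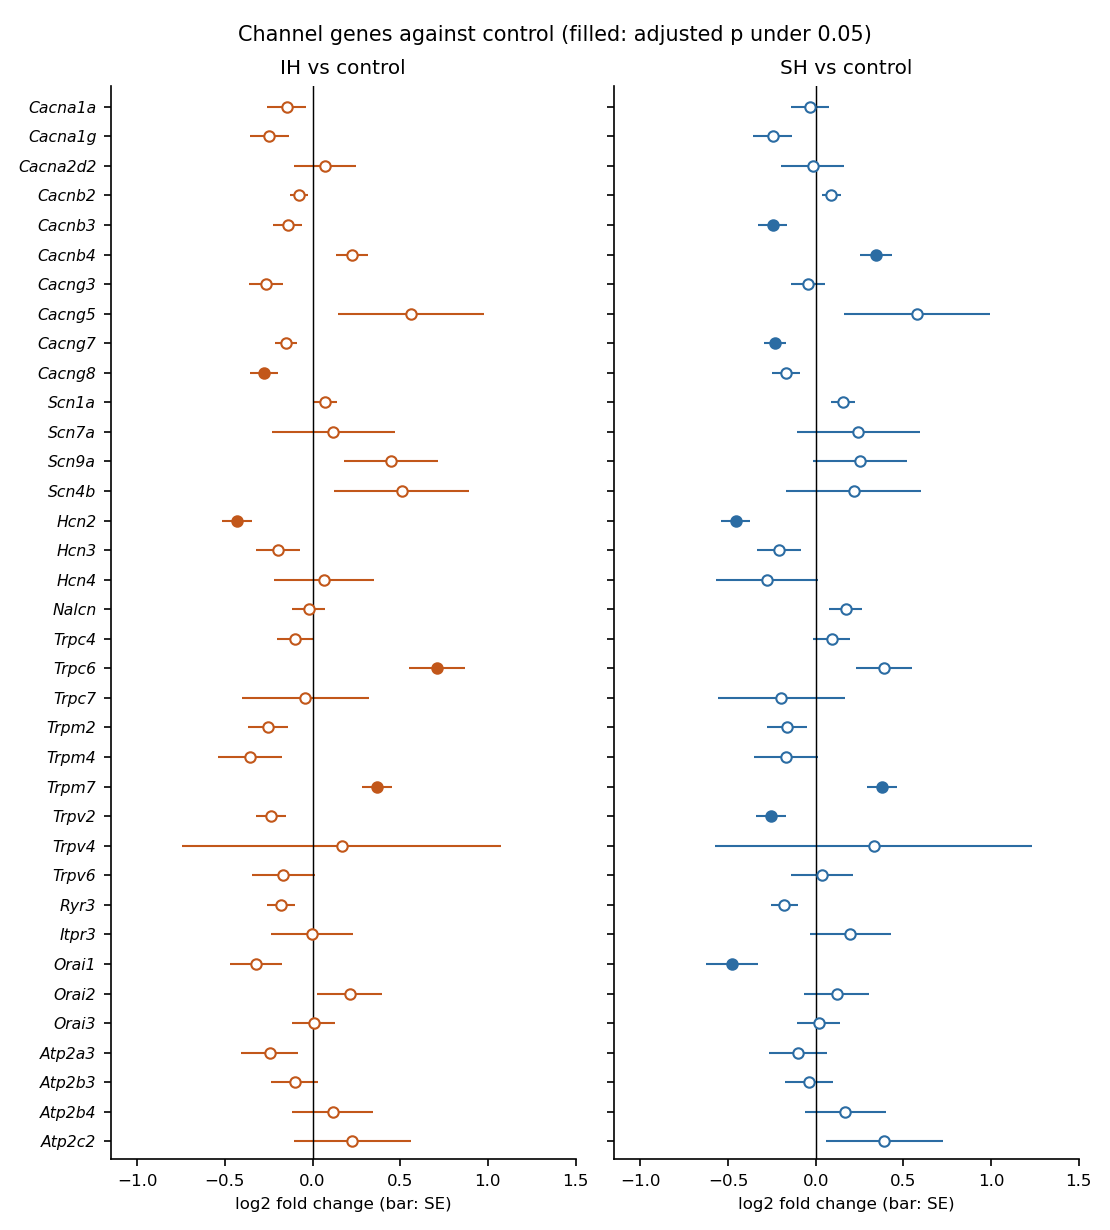
Log2 fold change of 36 of the 39 tested channel genes, IH vs. control on the left and SH vs. control on the right, as points with bars of 1 SE, ordered by channel class. Filled points are the 4 and 7 genes with an adjusted p under 0.05. Trpc6 has the largest called difference in IH, and the genes with wide bars, such as Trpv4 and Cacng5, are those that differ between libraries of one group.

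Trpc6 (ENSMUSG00000031997, chr9:8492905-8682359, plus strand), a diacylglycerol-gated calcium-permeable channel, was the channel gene with the largest called difference. It stood at 379, 392, 456 and 456 in the control libraries, 791, 569, 687, 589.5 and 805 in the IH libraries and 364, 590.1, 488, 666 and 651 in the SH libraries. Every IH library lay above every control library, while SH 1 lay below all controls and the other 4 SH libraries above them. The log2 fold change was 0.71 ± 0.16 (SE) in IH (adjusted p = 0.0122), 0.39 ± 0.16 in SH (adjusted p = 0.0937) and 0.32 ± 0.15 for IH vs. SH (adjusted p = 0.312). Without SH 1 the SH difference was 0.51 with an adjusted p of 0.0138, so whether it passed turned on that library. Trpc6 is strongly expressed in dentate gyrus granule cells. The summed count of 9 other markers of these cells was 9894 to 12703 in control, 11844 to 20535 in IH and 11357 to 20551 in SH, with medians of 11785, 14345 and 11929, and the groups overlapped. None of the 9 was at 0 in any library. Their median log2 fold change was 0.41 in IH and 0.34 in SH, beside -0.015 and 0.0035 over all tested genes. All 10 listed genes, Trpc6 included, had positive fold changes in IH, and 8 of the 10 did in SH. Of the 9, 1 was called higher in IH and 2 in SH. Prox1 rose in both, by 0.66 ± 0.16 and 0.81 ± 0.16. The IH call of Prox1 was lost without control 1 or control 2 (0.63 in both, adjusted p = 0.0537 and 0.0572). With the mean level of these 9 markers as a covariate, the difference of Trpc6 was 0.55 in IH (adjusted p = 0.0286) and 0.24 in SH (adjusted p = 0.241).

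Trpm7 (ENSMUSG00000027365, chr2:126633480-126718182, minus strand), a channel with its own kinase domain that carries magnesium and calcium, rose in both kinds of hypoxia. Its values were 1320.4, 1427, 1483 and 1437 in the control libraries, 1856, 1834, 1579, 2128 and 1757 in the IH libraries and 1731, 1739, 1676, 2073 and 1981 in the SH libraries. All 10 hypoxia libraries were above all 4 controls, one of 2 channel genes higher without overlap in IH (7.66% of all genes) and the only one in SH (8.76%). Its differences from control were 0.37 ± 0.09 in IH (adjusted p = 0.0136) and 0.38 ± 0.09 in SH (adjusted p = 0.00756), and the difference between IH and SH was -0.01 ± 0.08 (adjusted p = 0.991). Both calls of Trpm7 were lost with GC content and length trends removed, at 0.17 in IH (adjusted p = 0.205) and 0.15 in SH (adjusted p = 0.259). In the annotation it shares exon sequence with an unnamed protein-coding gene on the same strand (ENSMUSG00000144230), so that reads could have been split between them.

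Trpv2 (ENSMUSG00000018507, chr11:62465304-62491341, plus strand), a channel found in immune cells and neurons, was lower in SH. It measured 376, 381, 355 and 357 in the control libraries, 302, 327, 305, 283 and 339 in the IH libraries and 332, 318, 318, 269 and 298 in the SH libraries. Both hypoxia groups lay wholly under the controls, with differences of -0.24 ± 0.09 in IH (adjusted p = 0.0804) and -0.26 ± 0.09 in SH (adjusted p = 0.0445). The SH call was near the threshold and was lost under 23 of 28 alternatives, with DESeq2 among them (adjusted p = 0.0544). With 1 library left out it held only without IH 3, IH 5 or SH 1, and the other 11 such fits gave adjusted p-values of 0.0530 to 0.112. With GC content and length trends removed it was -0.20 (adjusted p = 0.146). Of 11 microglial markers listed, 7 were in the deposited table, and their sum was lower in the SH libraries too. It was 5552 to 5987 in control, 5067 to 6273 in IH and 4201 to 5089 in SH, and 3 of the 7 fell in SH. The part of these markers in the Trpv2 difference was not tested.

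Of the other 8 TRP genes 7 were tested, and none was called. Trpm4, a calcium-activated channel for monovalent ions, had one of the lowest fold changes in IH, with counts of 336, 332, 338 and 328 in the control libraries, 298, 259, 209, 199 and 335 in the IH libraries and 236, 251, 244, 435 and 317 in the SH libraries. The controls lay between 328 and 338 and 4 IH libraries were below them, but IH 5 was among them and SH 4 above, and the difference was -0.36 ± 0.18 in IH (adjusted p = 0.2). With the dentate gyrus markers as a covariate it was a call, at -0.57 (adjusted p = 0.0335). Trpc4, the most abundant TRP gene per kb, counted 1453, 1422, 1286 and 1316 in the control libraries, 1601, 1211, 1232, 1283 and 1072 in the IH libraries and 1349, 1535, 1699, 1271 and 1439.6 in the SH libraries, with the 3 groups overlapping. Trpm2, which opens on oxidative stress, ranged over 973 to 1214 in control, 743 to 979 in IH and 769.9 to 1104 in SH, with a difference of -0.25 ± 0.12 in IH (adjusted p = 0.152). Trpv6 reached at most a normalized count of 104.5 in any library, and Trpc7 and Trpv4 varied by library, as described further on.

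**Figure D2:**
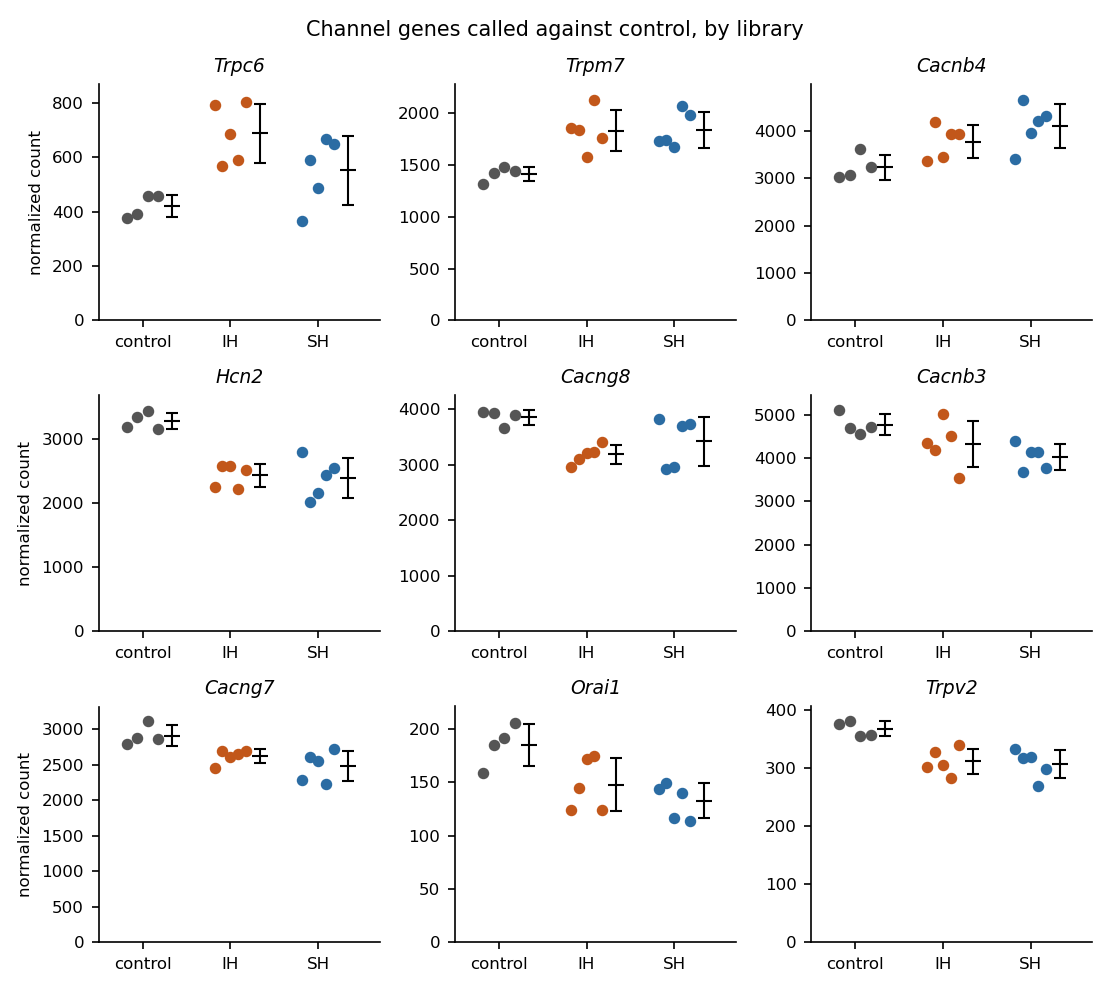
Normalized count per library of the 9 channel genes called against control in IH, SH or both, with the mean and SD of each group to the right of its points and the axis from 0. Hcn2, Trpm7, Trpv2 and Cacng7 separate both hypoxia groups from control, Trpc6 and Cacng8 separate IH alone, Cacnb3 and Orai1 separate SH alone, and Cacnb4 overlaps with control in both.

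Hcn2 (ENSMUSG00000020331, chr10:79552120-79571948, plus strand), the main HCN subunit here by level, fell in both comparisons with the lowest adjusted p-values of all channel genes. Its normalized counts were 3187, 3339, 3425 and 3149 in the control libraries, 2247, 2574, 2573, 2221 and 2519 in the IH libraries and 2785, 2011, 2146, 2435 and 2547 in the SH libraries. The lowest control, 3149, was above the highest hypoxia library, SH 1 at 2785. Means were 3275 ± 129 in control, 2427 ± 177 in IH and 2385 ± 311 in SH (± is SD over 4, 5 and 5 libraries). Its log2 fold changes were -0.43 ± 0.08 with IH (adjusted p = 0.00606) and -0.46 ± 0.08 with SH (adjusted p = 0.00273), and the difference between IH and SH was 0.02 ± 0.08. Both calls of Hcn2 were lost with GC content and length trends removed, at -0.19 in IH (adjusted p = 0.155) and -0.10 in SH (adjusted p = 0.444). Part of its first exon lies opposite an exon of the lncRNA gene Gm66204, and exons of Cacnb4, Cacng7, Cacng8 and Orai1 also lie opposite lncRNA exons. The library kit keeps strand, but whether the counting used it is not given in the sources used here. Of 10 neuronal markers listed, 5 were in the deposited table, which kept genes partly for a signal that departed from control. A shift in the sum of these 5 therefore does not stand for the whole list. In the same libraries their summed count was 71726 to 76727 in control, 60792 to 71007 in IH and 62453 to 67924 in SH. Both hypoxia groups thus lay under the controls. Of the 5 genes, 2 fell in SH, Thy1 (-0.23 ± 0.06, adjusted p = 0.0138) and Slc17a7 (-0.26 ± 0.07, adjusted p = 0.0215). With GC content and length trends removed, Thy1 was at -0.096 (adjusted p = 0.226) and Slc17a7 at -0.071 (adjusted p = 0.491), and Slc17a7 also lost its call without control 1 (-0.24, adjusted p = 0.0687) or control 2 (-0.26, adjusted p = 0.0548). The sum of 11 pyramidal cell markers, of 13 listed, was 20476 to 22174 in control, 16169.6 to 21251 in IH and 16873 to 20261 in SH. Here SH lay under the controls and IH overlapped with them. The part of these markers in the differences of Hcn2 and of the neuronal genes Cacng7 and Cacng8 was not tested.

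Hcn3 and Hcn4 were far less abundant and not called. Hcn3 ranged over 325 to 384 in control, 261 to 389 in IH and 257 to 342 in SH. Hcn4, the pacemaker isoform of heart and thalamus, counted 70.1, 40.6, 39.5 and 62.02 in the control libraries, 55.4, 60.05, 57.2, 27.5 and 75.8 in the IH libraries and 41.1, 49.2, 59.5, 26.2 and 41.9 in the SH libraries. All 3 groups overlapped for Hcn4, and IH and SH differed by 0.34 ± 0.28 (adjusted p = 0.625). Nalcn, the sodium leak pore, counted 2733, 2709, 2497 and 2424 in the control libraries, 2851, 2783, 2286, 2591 and 2253 in the IH libraries and 2764, 3464, 3094, 2727 and 2533 in the SH libraries. IH and SH overlapped, with a difference of -0.19 ± 0.09 for IH vs. SH, an unadjusted p of 0.0447 and an adjusted p of 0.300.

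Of the calcium channel genes, the table held only 2 pores, Cacna1a and Cacna1g, with 1 alpha2delta, 3 beta and 4 gamma genes. Other pores were not in it and cannot be read. The calls fell on beta and gamma genes and on neither pore, beside 10.9% of all genes called in IH and 20.6% in SH. Counts this small cannot show a difference between subunit classes. Cacna1a, the P/Q-type pore of presynaptic terminals, counted 5498, 5516, 5882 and 5446 in the control libraries, 4383, 5157, 4556, 5159 and 5959 in the IH libraries and 5789, 4505, 4486, 6171 and 6336 in the SH libraries. The controls lay inside the range of either hypoxia group. Cacna1g, a T-type pore, ranged over 2683 to 3658 in control, 2111 to 2851 in IH and 2168 to 2963 in SH, with a log2 fold change of -0.25 ± 0.11 in IH (adjusted p = 0.15) and -0.24 ± 0.11 in SH (adjusted p = 0.127). It overlapped with control in both, and in SH it was a call with the length trend alone removed (-0.35, adjusted p = 0.0377). Cacna2d2, an alpha2delta subunit, counted 913, 689, 662 and 807 in the control libraries, 770.1, 756, 579.6, 759 and 1162 in the IH libraries and 683, 753, 708, 617 and 1026 in the SH libraries. Its highest values were IH 5 and SH 5, and its groups overlapped.

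Of the 3 beta subunits, which bring the pore to the membrane and set its gating, Cacnb4 rose and Cacnb3 fell in SH. Cacnb4 (ENSMUSG00000017412, chr2:52318337-52566843, minus strand) counted 3019, 3067, 3608 and 3234 in the control libraries, 3362, 4195, 3444, 3940.3 and 3927 in the IH libraries and 3402, 4655, 3954, 4209 and 4303 in the SH libraries. Only SH 1 lay within the control range among the SH libraries; the difference was 0.34 ± 0.09 in SH (adjusted p = 0.0158) and 0.22 ± 0.09 in IH (adjusted p = 0.113). The SH call was lost without control 1 (0.31, adjusted p = 0.0527) or control 2 (0.32, adjusted p = 0.0504). With GC content and length trends removed it was 0.11 (adjusted p = 0.373).

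Cacnb3 (ENSMUSG00000003352, chr15:98528721-98542417, plus strand), in contrast, was lower in SH. It counted 5105, 4698, 4544 and 4724 in the control libraries, 4353, 4185, 5010.4, 4502 and 3549 in the IH libraries and 4397, 3671, 4136, 4129 and 3769 in the SH libraries. Every SH library was under every control, but not every IH library was, with IH 3 among the controls. The difference was -0.25 ± 0.08 in SH (adjusted p = 0.0475) and -0.14 ± 0.08 in IH (adjusted p = 0.257), and the SH call was lost under 21 of 28 alternatives. With 1 library left out it held only without IH 3, IH 5 or SH 1, and the other 11 such fits gave adjusted p-values of 0.0559 to 0.133. After removal of GC content and length trends, the SH difference was -0.054 (adjusted p = 0.698).

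Cacnb2 was the one channel gene for which IH and SH did not overlap, all IH libraries being lower, beside 1.83% of all genes lower without overlap. It counted 1714, 1904, 1841 and 1787 in the control libraries, 1716, 1767, 1751, 1706 and 1638 in the IH libraries and 2064, 1845, 1881, 1918 and 1926 in the SH libraries. The 5 IH libraries lay below the control mean of 1812 and the 5 SH libraries above it, and the difference between IH and SH was -0.17 ± 0.05 (unadjusted p = 0.00407, adjusted p = 0.0985). In the fit without these trends of GC content and length, the difference of Cacnb2 in SH turned from 0.09 ± 0.05 to -0.085 (adjusted p = 0.421), on the same side as IH.

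The 3 more abundant gamma genes encode TARPs, of which Cacng8 was called in IH and Cacng7 in SH. Cacng8 (ENSMUSG00000053395, chr7:3439199-3464781, plus strand), which encodes TARP gamma-8, the main TARP of hippocampal pyramidal cells, counted 3949, 3917, 3653 and 3884 in the control libraries, 2949.9, 3101, 3213, 3230.1 and 3408 in the IH libraries and 3812, 2915, 2964, 3685 and 3722 in the SH libraries. No IH library reached the lowest control, 3653, whereas SH fell into a higher set, SH 1, SH 4 and SH 5, and a lower pair, SH 2 and SH 3. The difference was -0.28 ± 0.08 in IH (adjusted p = 0.0393) and -0.17 ± 0.08 in SH (adjusted p = 0.138). The IH call was lost without control 1, control 2, control 4, IH 1, IH 2 or IH 4, taken singly, with differences of -0.28 to -0.25 and adjusted p-values between 0.0674 and 0.0973. After removal of GC content and length trends, the IH difference of Cacng8 was -0.069 (adjusted p = 0.595).

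Cacng7 (ENSMUSG00000069806, chr7:3380237-3416738, plus strand), a TARP that also modulates calcium channels, counted 2792, 2878, 3119 and 2864 in the control libraries, 2455, 2691, 2607, 2651 and 2696 in the IH libraries and 2291, 2609, 2548, 2224 and 2717 in the SH libraries. All 10 hypoxia libraries were below all 4 controls. The difference was -0.23 ± 0.06 in SH (adjusted p = 0.019) and -0.15 ± 0.06 in IH (adjusted p = 0.123); the SH call was lost without control 3, where it was -0.20 with an adjusted p of 0.0548, and with GC content and length trends removed, where it was -0.050 (adjusted p = 0.763).

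Cacng3, another TARP gene, counted 1183, 994, 963 and 1103 in the control libraries, 791, 1005, 992, 809.6 and 819 in the IH libraries and 885, 1095, 968, 1063 and 1127 in the SH libraries. In IH the libraries IH 1, IH 4 and IH 5 were under all others and IH 2 and IH 3 were among the controls, giving -0.26 ± 0.10 (adjusted p = 0.0884), and -0.22 ± 0.09 for IH vs. SH (unadjusted p = 0.0321, adjusted p = 0.255). Of 39 channel genes, 4 were lower without overlap in IH (Hcn2, Cacng8, Trpv2 and Cacng7; 7.48% of all genes) and 5 in SH (Hcn2, Trpv2, Cacnb3, Cacng7 and Orai1; 10.6% of all genes).

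None of the 4 pore and 2 beta genes of sodium channels in the table was called. Scn1a, the pore of fast-spiking interneurons, counted 2486, 2736, 3066 and 2529 in the control libraries, 3003, 2953, 2632, 2871 and 2737 in the IH libraries and 2866, 3199, 3192, 2939 and 2873 in the SH libraries. Its SH values lay within the upper part of the control range or just above it, with a difference of 0.16 ± 0.07 (adjusted p = 0.114), and without control 3 it was a call at 0.22 (adjusted p = 0.0292). Scn7a and Scn9a reached at most 175 and 222 normalized counts, and Scn4b differed between libraries of one group.

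Among the genes of calcium stores and pumps, Orai1 (ENSMUSG00000049686, chr5:123153043-123168535, plus strand), the pore of store-operated calcium entry, was lower in SH. Its counts were 158, 184, 191 and 206 in the control libraries, 124, 145, 172, 175 and 123 in the IH libraries and 143, 149.6, 117, 139.9 and 114 in the SH libraries. The SH libraries were all under the lowest control, 158, while IH 3 and IH 4 were not. The difference was -0.48 ± 0.15 in SH (adjusted p = 0.0338) and -0.32 ± 0.15 in IH (adjusted p = 0.154). The SH call was lost without control 2, control 3, control 4, SH 3, SH 4 or SH 5, taken singly, with differences between -0.50 and -0.42 and adjusted p-values up to 0.0887. In the fit without these trends of GC content and length, the SH difference of Orai1 was -0.28 (adjusted p = 0.279). The microglial marker sum given for Trpv2 was lower in the same SH libraries, and its part in the Orai1 difference was not tested.

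Orai2, the most abundant Orai gene, counted 2991, 3969.6, 4540.4 and 4178 in the control libraries, 3335, 4303, 5016, 4463 and 5563 in the IH libraries and 4153, 3012, 3283, 5789.8 and 5045 in the SH libraries. Its spread within each group was larger than any difference between groups, and Orai3 ranged over 503 to 529.6 in control, 412 to 683 in IH and 467 to 605 in SH. Ryr3, the ryanodine receptor present in the table, counted 3971, 4773, 4999 and 4865 in the control libraries, 4300.0, 3921, 3639, 4205 and 4440.4 in the IH libraries and 3849.8, 4013, 3823, 4532 and 4342 in the SH libraries. Control 1 was within the hypoxia range and the other 3 controls above it; the difference was -0.18 ± 0.08 in IH (adjusted p = 0.137) and -0.18 ± 0.08 in SH (adjusted p = 0.117). Ryr3 became a call with the length trend alone removed, at -0.27 in IH (adjusted p = 0.0170) and -0.31 in SH (adjusted p = 0.00564), and without control 1 in SH, at -0.25 (adjusted p = 0.0411).

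Itpr3, an IP3 receptor, counted 207, 134, 138 and 135 in the control libraries, 125, 132, 95.4, 193 and 219 in the IH libraries and 149, 153, 204, 154 and 222 in the SH libraries. Control 1 was high among the controls, and the groups overlapped. Atp2b3, a plasma membrane calcium pump and the most abundant ATPase per kb, counted 4257, 4329.8, 3933 and 5696 in the control libraries, 5041, 4204, 3088, 4999 and 3872 in the IH libraries and 5146, 4582, 4422, 3938 and 4094 in the SH libraries, with control 4 highest and IH 3 lowest. Atp2b4 ranged over 2037 to 4146 in control, 2230.3 to 3965 in IH and 2274 to 4368 in SH.

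Atp2a3, a pump of the endoplasmic reticulum, counted 277, 217, 186 and 342 in the control libraries, 188, 230.2, 205, 228 and 224 in the IH libraries and 239, 204, 301, 216 and 229 in the SH libraries. Atp2c2, a Golgi pump, counted 63.7, 53.1, 37.2 and 39.2 in the control libraries, 77.3, 63.4, 50.1, 76.2 and 17.03 in the IH libraries and 75.1, 51.2, 75.3, 63.7 and 51.9 in the SH libraries. The groups overlapped for both genes, and the SH difference of Atp2c2 was 0.39 ± 0.33 (adjusted p = 0.421), a size within its spread.

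The direction of the called genes went with the base composition of their transcripts. The genes that fell have GC-rich canonical transcripts, from 53.7% for Trpv2 to 65.9% for Hcn2, and those that rose have GC-poor ones, 38.5% for Cacnb4, 40.2% for Trpm7 and 46.0% for Trpc6. Across the 39 members the log2 fold change and the GC content had a Pearson correlation of -0.52 in IH, -0.60 in SH and 0.08 for IH vs. SH, beside -0.42, -0.51 and 0.15 over 7293 genes, all from the same libraries. The slope of a library's log2 counts on GC content, relative to the mean of all libraries, was between 0.0022 and 0.022 per percentage point in control, -0.0055 and 0.00063 in IH, and -0.017 and 0.0049 in SH, so libraries of one group also differed in it. When the smooth trends of GC content and length were removed from each library, 2 channel genes were called in IH and 0 in SH. Trpc6 was still higher in IH by 0.61 (adjusted p = 0.0269), and Cacnb2 became a call at -0.22 (adjusted p = 0.0401). With a replicate block as well, Trpc6 was at 0.55 (adjusted p = 0.0561). A trend of this kind takes out any difference tied to GC content, whether it arose in the tissue or in the library, and the 2 cannot be told apart here.

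**Figure D3:**
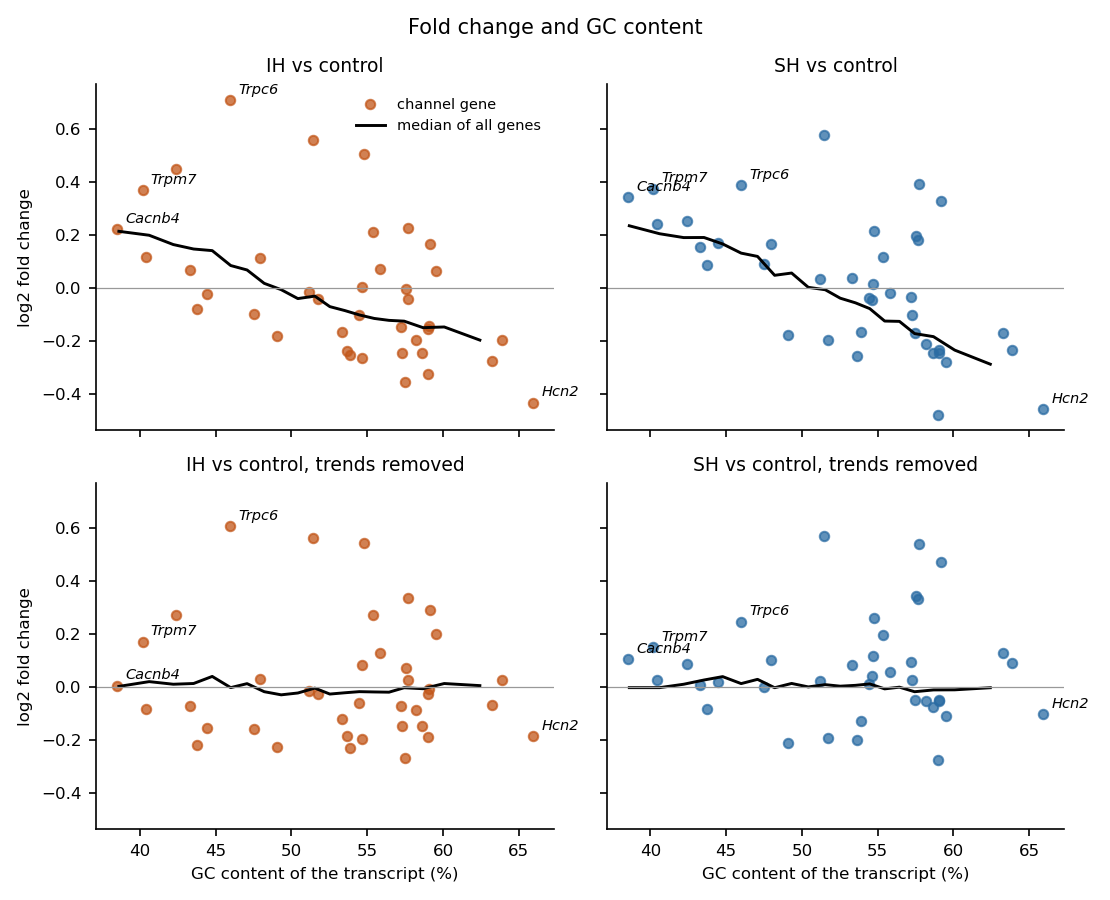
Log2 fold change of the 39 channel genes (points) against the GC content of their canonical transcript, with the median of all genes in 20 bins of GC content as a line. Upper panels show the fit as described and lower panels the fit with GC content and length trends removed. The downward line of the upper panels is flat in the lower ones, where Hcn2, Trpm7 and Cacnb4 lie nearer 0 and Trpc6 in IH is at 0.61, against 0.71 in the upper panel.

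Leaving out the 4 libraries rich in choroid plexus transcripts left Trpc6 as the one call in IH, at 0.75 (adjusted p = 0.0304), with Hcn2 at -0.37 (adjusted p = 0.0534) and Trpm7 at 0.29 (adjusted p = 0.120). In SH there were then 4 calls. Of the 7 genes called with all libraries, Hcn2 at -0.53 (adjusted p = 0.0046), Trpm7 at 0.41 and Cacnb4 at 0.41 (both adjusted p = 0.0174) kept theirs. Trpc6, not among the 7, became a call at 0.55 (adjusted p = 0.0251).

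Several members varied more between libraries of one group than between groups. Trpv4, a channel of high level in choroid plexus epithelium, counted 32.8, 37.7, 25.6 and 373 in the control libraries, 241, 28.9, 48.9, 287 and 43.4 in the IH libraries and 417, 121, 32.8, 54.97 and 94.8 in the SH libraries. The 4 highest were the 4 libraries named above for choroid plexus transcripts, followed by SH 2 and SH 5, which were also the next in the marker sum, at 42562 and 31849.8. In SH 1, Trpv4 was 417 with a marker sum of 94430.0, and in control 3 it was 25.6 with a sum of 4148. Of the 17 markers, Slc4a5 and Kcnj13 were at 0 in at least 1 library, and none of the 17 was called in any comparison.

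Cacng5, a TARP-family gene, counted 125, 144, 207 and 139 in the control libraries, 137, 166, 194, 150.3 and 484 in the IH libraries and 179, 124, 117, 309 and 421 in the SH libraries. IH 5, SH 5 and SH 4 were the 3 highest of all 14, and they were also the 3 highest in the sum of 9 oligodendrocyte and precursor markers, at 192831, 145716 and 140571, against 75907 to 123015 in the rest. The same 3 libraries were the highest in the dentate gyrus marker sum, between 19737 and 20551. The fold change of Cacng5, the largest positive one in SH, was 0.58 ± 0.42 (adjusted p = 0.336) and 0.56 ± 0.42 in IH (adjusted p = 0.37), and with the dentate gyrus markers as a covariate it turned to -0.10 and -0.22.

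Scn4b, the beta4 sodium channel subunit, was highest in the same 3 libraries, at 940.0 in IH 5, 757 in SH 5 and 546 in SH 4, against 189.6 to 480.3 elsewhere.

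A second set, IH 1, SH 2 and SH 3, was high in other members. Trpc7 was 159.9, 109.6 and 85.1 in these, and 39.98 to 101 in the other 11 libraries, so that 2 controls overlapped it. Scn7a, at 154, 175 and 170.1, and Scn9a, at 222, 167 and 162, each had their 3 highest values there. The part of region or cell type shares in these values was not tested.

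**Figure D4:**
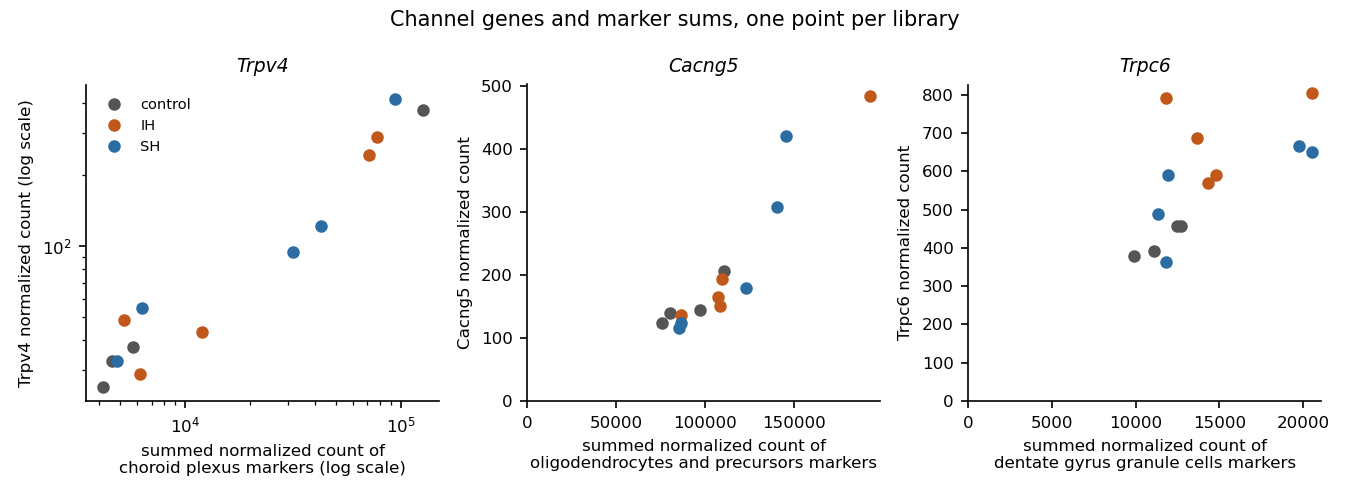
Normalized count of Trpv4, Cacng5 and Trpc6 in each library against the summed normalized count of choroid plexus, oligodendrocyte and dentate gyrus markers, one point per library, with both axes of the Trpv4 panel on a log scale. Trpv4 and Cacng5 follow the marker sum across all 3 groups. For Trpc6, the libraries IH 5, SH 4 and SH 5, which have the highest dentate gyrus sums, are at 805, 666 and 651. IH 1, whose sum of 11844 lies within the control range, is at 791, and SH 1, with a sum of 11831, is at 364.

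Levels were compared between genes per kb of canonical transcript. In control libraries the normalized count per kb was 1922 ± 96.2 for Cacnb3 (SD, n = 4), 1532 ± 53.5 for Cacng8 and 1002 ± 169 for Orai2. Then came Atp2b3, Cacng7 and Hcn2 at 949.9 ± 163, 925 ± 45.1 and 923 ± 36.4 per kb, which overlapped within their SD. Cacna1a, at 617 ± 22.1 per kb, was the highest of the 2 Cav and 4 Nav pores in the table. At the low end Hcn4 and Trpv3 stood at 7.94 ± 2.30 and 6.07 ± 1.14 per kb. Trpc6 was at 82.8 ± 8.12 per kb in control and 135 ± 21.6 in IH, and Trpc4 at 394 ± 23.3 in control.

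**Figure D5:**
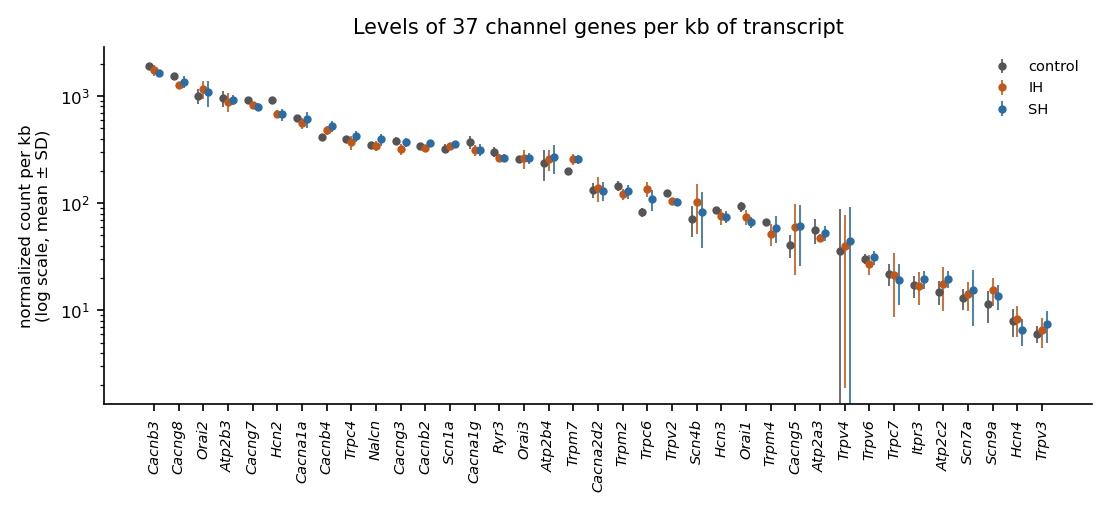
Normalized count per kb of canonical transcript for 37 of the 40 channel genes on a log scale, as mean and SD of each group, ordered by the mean over all libraries. Levels span from 1922 per kb for Cacnb3 in control to 6.07 per kb for Trpv3, and each gene has 1 point for each of the 3 groups.

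Partner genes of these channels, listed by function but with earlier results of these data known, were read from the same fit. Their counts beside the shares of all genes are therefore a description and no test. Of 11 tested partners of sodium, calcium, HCN and NALCN complexes, 1 fell in IH, 2 fell in SH and 1 was lower in IH than in SH, beside 4.85% of all genes lower in IH, 10.5% lower in SH and 2.37% called in either direction between IH and SH. The first and the last are Pex5l, which encodes TRIP8b, the subunit that sets surface levels of HCN channels: its log2 fold change was -0.33 ± 0.08 for IH vs. control (adjusted p = 0.0193) and -0.33 ± 0.08 for IH vs. SH (adjusted p = 0.0373). The IH call of Pex5l was lost without control 2 or control 4 (adjusted p = 0.0611 and 0.0573), and that against SH without control 2, IH 1, IH 2, IH 3, IH 4, SH 1, SH 4 or SH 5 (adjusted p up to 0.0884). In SH the calls were Nalf2, a NALCN ancillary subunit (-0.28 ± 0.06, adjusted p = 0.00815), and Cbarp, a regulator of calcium channel beta subunits (-0.26 ± 0.08, adjusted p = 0.0318). After removal of GC content and length trends, Nalf2 was at -0.043 and Cbarp at 0.030 (adjusted p = 0.805 and 0.803), and Cbarp also lost its call without control 1, control 2, SH 2, SH 4 or SH 5 (adjusted p up to 0.111).

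Of 10 tested partners of the endoplasmic reticulum and of store-operated entry, 3 rose and 1 fell in IH, 3 rose and 2 fell in SH, and 2 were higher in IH than in SH, beside calls in either direction for 10.9%, 20.6% and 2.37% of all genes. Hspa5, the luminal chaperone BiP, rose by 0.89 ± 0.10 in IH (adjusted p = 2.44e-04) and 0.39 ± 0.10 in SH (adjusted p = 0.0154), and was higher in IH than in SH by 0.51 ± 0.09 (adjusted p = 0.0124). Calr, the luminal calcium-binding protein calreticulin, rose by 0.58 ± 0.08 in IH and 0.42 ± 0.08 in SH (adjusted p = 5.48e-04 and 0.00219). Homer1, which links receptors to calcium stores, rose by 0.34 ± 0.07 and 0.37 ± 0.07 (adjusted p = 0.0105 and 0.00379). Calr kept both calls under all 28 alternatives. In the fit without these trends of GC content and length, Hspa5 in SH was at 0.23 (adjusted p = 0.209), and Homer1 at 0.22 in both (adjusted p = 0.0920 in IH and 0.0868 in SH). Hspa5 in SH also lost its call without control 1 (0.31, adjusted p = 0.0546).

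Fkbp1b, a stabilizer of ryanodine receptors, fell, with -0.42 ± 0.09 in IH and -0.34 ± 0.09 in SH (adjusted p = 0.0105 and 0.0175). After removal of GC content and length trends, it was at -0.29 and -0.19 (adjusted p = 0.0562 and 0.184), and the SH call was also lost without control 4 (-0.31, adjusted p = 0.0561). Jph4, a junctophilin that ties the endoplasmic reticulum to the surface membrane, fell in SH, at -0.38 ± 0.05 on the log2 scale (adjusted p = 3.72e-04) and was higher in IH than in SH by 0.23 ± 0.05 (adjusted p = 0.0180). With the GC content trend alone removed Jph4 was at -0.14 in SH (adjusted p = 0.0731) and 0.14 for IH vs. SH (adjusted p = 0.106), and the latter call was lost without IH 4 (adjusted p = 0.0569).

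Of 21 tested calcium sensors and kinases, 1 fell in IH and 2 in SH, shares close to the 4.85% and 10.5% of all genes that were lower. Cabp1, a calmodulin-like protein that modulates calcium channels, fell, with -0.40 ± 0.07 in IH and -0.38 ± 0.07 in SH (adjusted p = 0.00252 and 0.00234), as did Ncs1, with -0.25 ± 0.05 in SH (adjusted p = 0.00371). In the fit without these trends of GC content and length, Cabp1 was at -0.076 in IH and 0.094 in SH (adjusted p = 0.674 and 0.568), while Ncs1 kept its call under all 28 alternatives. Of 13 tested calcium buffers, exchangers and mitochondrial uptake genes, 0 were called in IH (1 with an unadjusted p under 0.05) and 1 in SH, Mcu, the mitochondrial calcium uniporter, at -0.28 ± 0.07 (adjusted p = 0.0111), beside 10.9% and 20.6% of all genes. Without the 4 libraries rich in choroid plexus transcripts, calls were lost for Pex5l in IH (-0.25, adjusted p = 0.192) and against SH (-0.27, adjusted p = 0.283), Fkbp1b in IH (-0.35, adjusted p = 0.139) and SH (-0.31, adjusted p = 0.0851), and for IH vs. SH in Hspa5 (0.51, adjusted p = 0.0902) and Jph4 (0.22, adjusted p = 0.163).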

How the data were processed

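Hippocampal RNA of 14 samples was sequenced as 150-base paired reads from a strand-keeping poly(A) kit. The submitters' processing notes name bcl2fastq 2.19, FastQC, fastp 0.23.4, HISAT2 2.2.1, StringTie 2.2.1 and GRCm39. The authors deposited 1 table of estimated counts per gene, not normalized between samples, for 7756 genes. These were protein-coding genes kept for their read number in the groups and for a processed signal that departed from control, so p-values and shares hold within that selection. Fractions in 10 genes were rounded.

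The main test was edgeR 4.0.16's quasi-likelihood test (R 4.3.3) with TMM scaling, in 1 fit of the 3 groups over the 7338 genes whose mean reached 40 counts in all groups (418 did not). P-values were adjusted by Benjamini-Hochberg over these genes, and a gene was called at an adjusted p under 0.05. The study's methods name no test for its RNA-seq p-values. Standard errors were derived from the fold change and the F statistic. Library totals were compared by an exact permutation test (scipy 1.17.1). The labels number the replicates and name no animal, so p-values measure the spread between these samples.

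Channel genes, partner lists and marker lists were chosen with earlier results of these data known, and Trpc6 was named because the study had singled it out. Values in every library are given for Trpc6, for up to 10 members of lowest adjusted p among those called in each comparison, for the 2 members of largest positive and of largest negative fold change, and for the most abundant member of each class per kb. A few others are given because they varied by library. The values of 3 members are not reported here, though the counts and medians over all members include them. Of each partner list, up to 3 called genes per direction are named. Coordinates, lengths and GC contents are those of GENCODE M39 canonical transcripts. Exons of 23 of the 40 members overlap exons of another gene, in 21 on the opposite strand. Alternatives were DESeq2 1.42.0, other scalings and filters, the 2 compared groups alone, a replicate block, loess trends of GC content and length removed (span 0.5), a choroid plexus covariate and leaving out each replicate. The GC content and length trends taken singly, a dentate gyrus covariate and leaving out 4 libraries were added after seeing the data.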

Additional observations from a re-analysis of the deposited data

Results flagged for a closer look

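Single libraries stood far from the others of their group, by the gap to the nearest library against the range of the group, in 6 of 111 groups of libraries examined, and chance flags about 1 in 20 groups. Cacna1a was at 5882 in control 3, above the other controls. Itpr3 was at 207 in control 1. Cacng5 was at 484 in IH 5, a library with high oligodendrocyte and dentate gyrus marker sums. Trpc7 was at 159.9 in IH 1. Trpv4 was at 373 in control 4 and at 417 in SH 1, the libraries with the highest choroid plexus marker sums. Cacnb2 was listed because its IH libraries all lay below the control mean and its SH libraries all above it; the difference between IH and SH was -0.17 and missed the threshold (adjusted p = 0.0985), and the cause was not tested.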

How the results depend on the processing

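The count of channel genes called in IH vs. control was 4. It was 1 at an adjusted p under 0.01, 1 at the study's limits, 2 with GC content and length trends removed, 2 with the GC content trend alone removed, 1 with both trends removed and a replicate block, 8 with the dentate gyrus covariate (3 higher, 5 lower) and 1 without the choroid-rich libraries, and 3 to 4 when single replicates were left out. In SH it was 7, and 2 at an adjusted p under 0.01, 0 at the study's limits, 0 with the GC content and length trends or the GC content trend alone removed, 1 with both trends and a replicate block, 4 without the choroid-rich libraries, and 3 to 9 when single replicates were left out: 3 without control 2, 4 without control 3, control 4, SH 3, SH 4 or SH 5. For IH vs. SH it stayed at 0 under all 30 alternatives.

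Replicate numbers are shared between groups, and same-numbered samples deviated together in some pairs only: of 13 correlations, from -0.30 to 0.46 (control 4 with IH 4), 6 were above 0.1. Since not every pair was above 0.1, the numbers were not taken as pairing. With a replicate block, 4 genes were called in IH and 4 in SH.

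The median log2 fold change in IH, -0.04, was -0.085 with the replicate block, -0.14 with the choroid plexus covariate, -0.10 with the length trend removed, -0.12 without the choroid-rich libraries and -0.12 to -0.0077 without single replicates. In SH, 0.02, it was -0.084 with the replicate block, -0.076 with the dentate gyrus covariate and -0.054 to 0.070 without single replicates.

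Signs turned with both trends removed, with the replicate block added and with GC content alone, in that order: Cacng8 in SH (0.13, 0.092, 0.14), Cacnb2 in SH (-0.085, -0.076, -0.062), Cbarp in SH (0.030, 0.045, 0.049), Cabp1 in SH (0.094, 0.12, 0.088), Hcn2 in IH vs. SH (-0.083, -0.086, -0.12) and Trpm7 in IH vs. SH (0.020, 0.019, 0.0035, and 0.016 with length alone). They turned for Cacnb3 in IH with trends and block (0.027), Cacnb4 in IH with trends and block (-0.016) or GC content alone (-0.0072), Scn1a in SH with GC content alone (-0.0032), and Cacng5 with the dentate gyrus covariate (-0.22 in IH, -0.10 in SH). Without single replicates, Hcn2 in IH vs. SH ranged from -0.031 to 0.087 and Trpm7 from -0.070 to 0.042. Over the 61 comparisons of single channel, partner and marker genes that were recomputed, 1506 values kept direction and call, 156 lost a call, 15 gained one and 31 turned sign, and the causes were not tested. Counts of low genes such as Hcn4 and Trpv3 limit what can be seen for them.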
